A study of Mus musculus with 24 samples.

Results

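Mice eating cooked food from a staff cafeteria were compared with mice eating nothing but McDonald's fast food, to describe how the brain transcriptome differs between a pair of human diets. The comparison covers 12 of the 24 arrays in the brain series, 6 per diet, and these were picked by the diet in their labels. Both diets were eaten ad libitum for 2 weeks by female mice of the NMR-1 strain, 8 weeks old when the diets began, with littermates spread evenly over the groups. RNA came from the right cerebral hemisphere, 1 Affymetrix mouse genome array per mouse, in 2 processing batches that each held 3 mice of either diet. The other 12 mice ate either fruit, vegetable and yogurt food as given to chimpanzees or the mouse pellets they had been raised on. Levels are log2 values made by the robust multichip average, and every difference is the cafeteria level minus the fast food level, so that a difference of 1 is a doubling. Since a hemisphere is a mixture, fewer cells of a type and less RNA per cell cannot be told apart.

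Brain gene expression follows nutrition through several routes. Hypothalamic peptides and their receptors set appetite, insulin acts on neurons, and neurons and glia make their own cholesterol because plasma cholesterol does not cross the blood-brain barrier. Immediate early genes stand apart from these: they need no new protein to be switched on, they are transcribed within minutes of neuronal firing or of a stressor, and several encode transcription factors.

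The label of the tissue was checked on marker genes. Snap25, a synaptic vesicle fusion protein, lay between 10.9 and 12.4 on the 12 arrays, and Mbp, the myelin basic protein, between 11.5 and 12.9. Alb, the liver's serum albumin, lay between 3.75 and 4.28. Batches differed more than diets: 6240 of 13839 features (45.1%) passed the adjusted test between batch 2 and batch 1, and the first principal component, with 62.3% of the variance, followed the batches. One fast food array of batch 1 (replicate 3) sat at 5.81 on this component, nearer to batch 2 (8.76 to 29.6) than to the other batch 1 fast food arrays (-28.6 and -19.9). A cafeteria array of batch 1 (replicate 1) was the most extreme, at -42.7. The SD of the log2 values of an array, which tells how far high and low levels are spread, was 1.82 on that cafeteria array and 2.02 on that fast food array, and the diets averaged 1.95 ± 0.09 on cafeteria and 1.99 ± 0.09 on fast food (SD, n = 6 each; exact two-sided permutation p = 0.50). The 3′ minus 5′ signal of Actb and Gapdh, a measure of RNA breakdown, averaged 0.26 ± 0.05 on cafeteria and 0.27 ± 0.03 on fast food (SD, n = 6 each; exact two-sided permutation p = 0.73). No pair of arrays was a copy, with correlations between 0.951 and 0.994.

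No gene passed the test between the cafeteria and fast food diets. In limma with batch as a term, 0 of 13839 features (0%) had a Benjamini-Hochberg adjusted p under 0.05, and the lowest adjusted p was 0.43. At an unadjusted p under 0.05 there were 1119 features (8.09%), of which 372 were higher on cafeteria (2.69%) and 747 lower (5.4%), and at an unadjusted p under 0.01 there were 218 (1.58%). A two-way analysis of variance modelled on the methods, but run on 22519 probe sets above the median level because detection calls were not used here, gave 290 of 14211 genes (2.04%) at an unadjusted p under 0.01 and 0 after adjustment. Whether the difference depended on batch was tested in limma too, where 0 features (0%) passed the adjusted interaction test and 109 (0.788%) were at an unadjusted p under 0.05. All values below are therefore descriptions of these 12 mice, to be read against the whole table.

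Most features lay slightly lower on cafeteria. The difference was above 0 for 4427 features (32%), and the median difference was -0.05, being -0.06 in batch 1 and -0.04 in batch 2, beside a median SE of 0.09. This lean followed the level of expression: of the 3460 features with the lowest mean levels 53.7% were higher on cafeteria, and of the 3460 with the highest levels 14.4%. It also changed with scaling. A further quantile normalization over the 12 arrays, which by construction brings the median difference near 0, gave 0.00, and the share of features higher on cafeteria, among those at an unadjusted p under 0.05, was 60.1% in place of 33.2%. With the SD of each array as a covariate that share was 51.9%, without the 2 arrays that stood apart 45.8%, and with each array centred on its median 22%. A list of genes is therefore to be read against the median of all features, and its values under other scalings are given where they turn its direction.

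**Figure D1:**
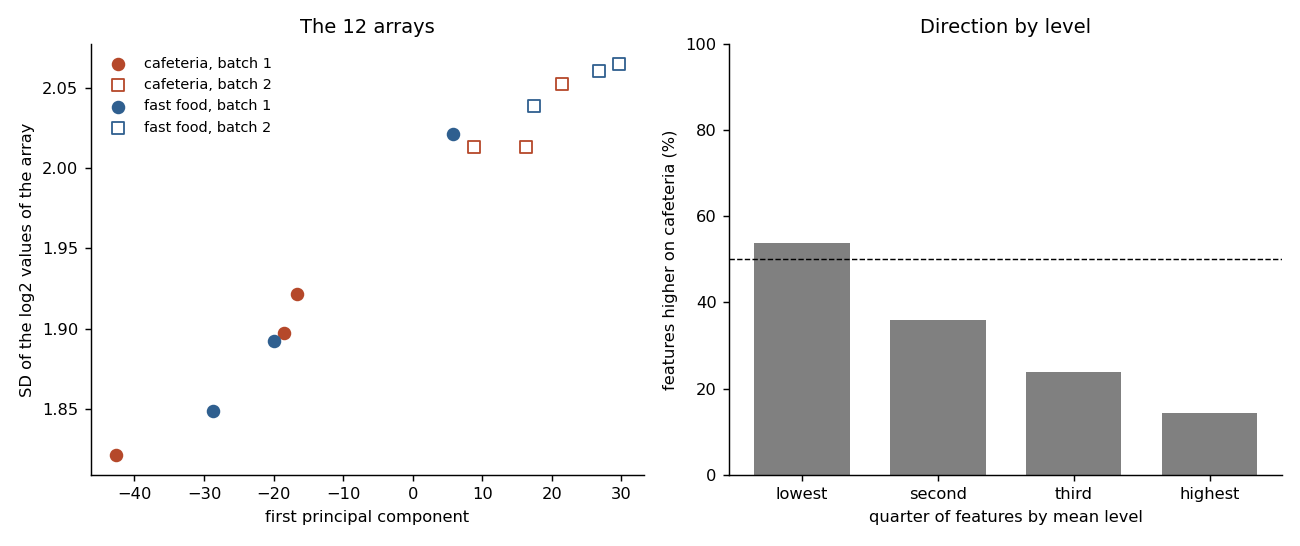
Left, the 12 arrays by their first principal component (x axis) and the SD of their log2 values (y axis), coloured by diet, filled for batch 1 and open for batch 2; cafeteria batch 1 replicate 1 lies at -42.7 and fast food batch 1 replicate 3 at 5.81. Right, the percentage of features higher on cafeteria than on fast food in each of 4 equal bins of the 13839 features by mean level, from 53.7% in the lowest bin to 14.4% in the highest, with a dashed line at an even split.

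Immediate early genes were the list with the lowest median difference in the deposited values. Of 24 measured members 22 were lower on cafeteria and 2 were higher, and their median difference was -0.24 against -0.05 for all features. The list median was -0.26 in batch 1 and -0.22 in batch 2. It stayed below 0 in every alternative tried, at -0.18 after a further quantile normalization, -0.14 with the SD of each array as a covariate and -0.11 without the 2 arrays that stood apart, where the medians of all features were 0.00. Without those 2 arrays, and without fast food batch 1 replicate 1, the olfactory bulb markers lay lower still, at -0.13 against -0.11 and at -0.34 against -0.30 for the immediate early genes. At an unadjusted p under 0.05 there were 7 members, each lower on cafeteria (background 5.4%), and 0 passed the adjusted test. Leaving out cafeteria batch 1 replicate 1 left 1 of 24 members lower at that p (2.82% of all features in that fit), and leaving out fast food batch 1 replicate 1 gave 12 (8.14%). With the SD of each array as a covariate 1 member was lower at that p (3.24%), and without the 2 arrays that stood apart 1 (2.54%).

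Npas4, a transcription factor of neurons that is induced by calcium entry, had the lowest difference of the list. On cafeteria it measured 3.87, 4.73 and 4.47 in batch 1 and 5.22, 4.80 and 5.09 in batch 2, against 5.43, 5.65 and 5.67 in batch 1 and 5.18, 5.30 and 5.38 in batch 2 on fast food. In batch 1 the diets did not overlap, whereas in batch 2 they did, and 5 of the 6 cafeteria arrays lay below the lowest fast food array. The difference was -0.73 ± 0.17 (SE; adjusted p = 0.56 from limma), made up of -1.22 in batch 1 and -0.25 in batch 2.

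Fos, the leucine zipper protein that pairs with Jun, reached a higher level and varied more. It measured 6.47, 7.79 and 7.82 in batch 1 and 7.19, 7.83 and 8.49 in batch 2 on cafeteria, against 7.37, 8.23 and 8.70 in batch 1 and 8.08, 8.40 and 8.82 in batch 2 on fast food. The diets overlapped in either batch, with 2 cafeteria arrays below every fast food array. The difference was -0.67 ± 0.26 (SE; adjusted p = 0.59), with -0.74 in batch 1 and -0.60 in batch 2, and it was -0.40 with the SD of each array as a covariate.

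Egr2, a zinc finger transcription factor, measured 4.31 at the lowest, 5.14 at the median and 5.60 at the highest on cafeteria, against 4.76, 5.62 and 5.99 on fast food. The ranges overlapped over most of their length, and the difference was -0.54 ± 0.22 (SE; adjusted p = 0.59). A second probe set of Egr2 gave -0.55. The other 4 members at an unadjusted p under 0.05 are named here after their values were seen. Nr4a1, an orphan nuclear receptor, averaged 7.93 ± 0.45 on cafeteria and 8.42 ± 0.49 on fast food (SD, n = 6 each), a difference of -0.50 ± 0.21 (SE). Arc, a cytoskeletal protein of synapses whose mRNA travels into dendrites, averaged 7.66 ± 0.58 on cafeteria and 8.20 ± 0.49 on fast food (SD, n = 6 each), a difference of -0.54 ± 0.25 (SE). Both were lower in either batch. Junb, a partner of Fos, differed by -0.41 ± 0.18 (SE) and Homer1, a scaffold of glutamate receptors whose short form is activity-induced, by -0.24 ± 0.11 (SE), with overlapping ranges in both. Over the alternatives Homer1 ran from -0.52 to -0.15, and which of its forms the probe set used reads was not tested.

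Some members lay nearer to the median of all features, and Jund and Egr4 are named after their values were seen. Jund, the Jun relative that is made constitutively, differed by 0.05 ± 0.11 (SE), and Egr4 by 0.09 ± 0.12 (SE). Per1, which is at once a clock gene and an immediate early gene, differed by -0.00 ± 0.13 (SE), as it averaged 6.84 ± 0.28 on cafeteria and 6.84 ± 0.20 on fast food (SD, n = 6 each), and its sign turned in 12 of 29 alternatives. Nr4a3, the third of its receptor family, differed by -0.10 ± 0.11 (SE), with 0.06 in batch 1 and -0.25 in batch 2. Dusp4, a phosphatase that switches off mitogen-activated kinases, averaged 4.67 ± 0.26 on cafeteria and 4.84 ± 0.12 on fast food (SD, n = 6 each), a difference of -0.17 ± 0.11 (SE) that was -0.09 without cafeteria batch 1 replicate 1.

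**Figure D2:**
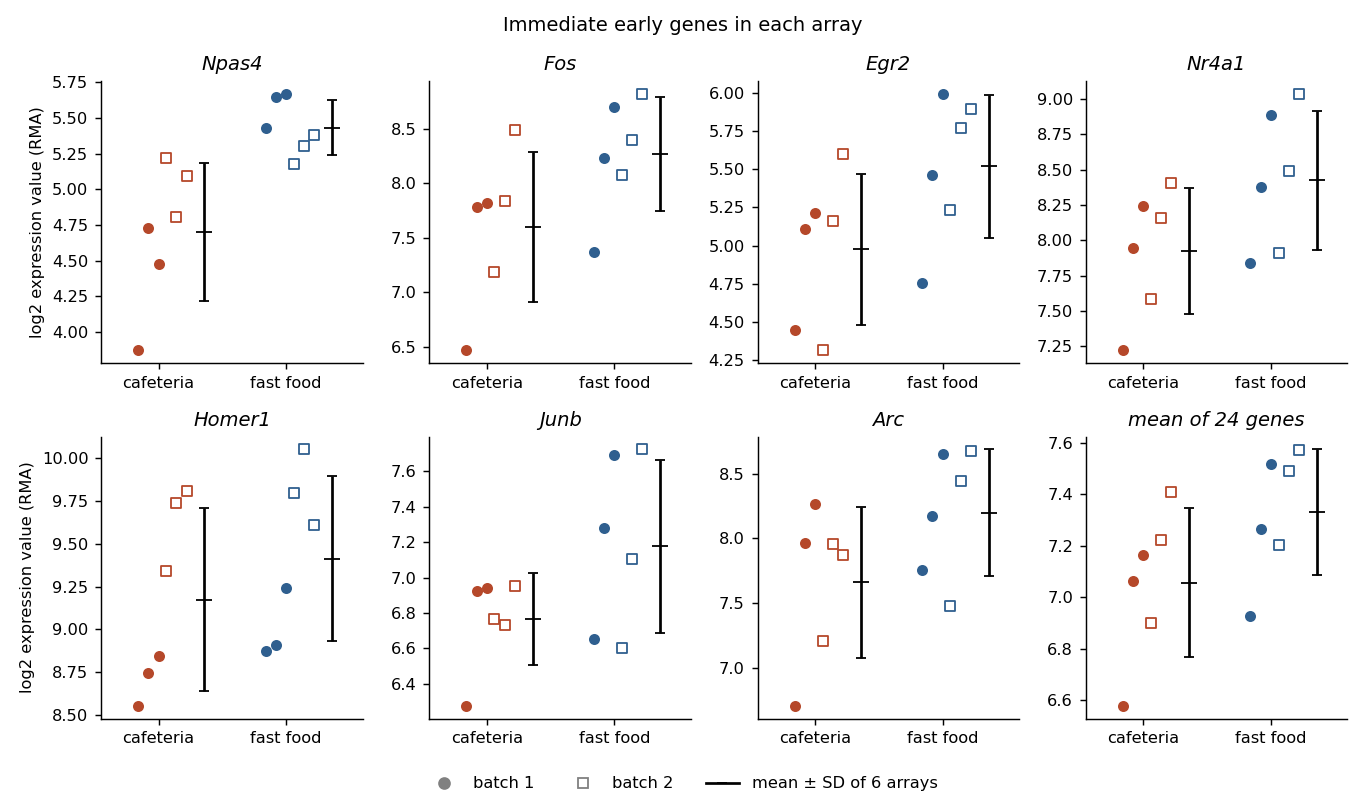
Log2 level (y axes) of 7 immediate early genes and the mean of all 24 measured members in each array, cafeteria left and fast food right, with filled circles for batch 1, open squares for batch 2 and bars for the mean ± SD of 6 arrays. The ranges of the diets overlap in every panel, and the list mean runs from 6.58 to 7.41 on cafeteria and from 6.93 to 7.57 on fast food.

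Transcription of these genes is known to be driven in part by the factor CREB, which binds the cAMP response element TGACGTCA or its core TGACG. The stretches from 250 bases before to 50 bases after the transcription start were searched on both strands for these letters, and the core is contained in the full element. A window was at hand for 17 of the 24 measured members. The core was found in 12 of these 17 genes (70.6%), against 6228 of 27025 genes overall (23%), and the full element in 2 (11.8%), which were Btg2 and Dusp1, against 549 of 27025 (2.03%). Several genes have more than 1 window, and a gene counts when any of its windows holds the letters. The genes overall were not matched to the list for base content, level or number of windows. A match is a description of the letters and says nothing of binding in these mice or of the diets. The windows of the 3 genes with the smallest p in the list are shown, 5′ to 3′, with cores on either strand in capitals, TGACG or its reverse complement CGTCA (RefSeq, GRCm38.p6). They lie at chr19:4989922-4990221 on the minus strand (Npas4), at chr12:85473640-85473939 on the plus strand (Fos) and at chr10:67537619-67537918 on the plus strand (Egr2, whose other starts gave 4 further windows, 2 of them with no core).
Npas4: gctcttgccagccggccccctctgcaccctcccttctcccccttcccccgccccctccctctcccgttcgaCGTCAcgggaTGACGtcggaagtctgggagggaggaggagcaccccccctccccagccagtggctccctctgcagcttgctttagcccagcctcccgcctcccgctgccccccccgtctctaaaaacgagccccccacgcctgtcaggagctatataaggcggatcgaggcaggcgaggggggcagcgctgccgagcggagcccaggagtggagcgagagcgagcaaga
Fos: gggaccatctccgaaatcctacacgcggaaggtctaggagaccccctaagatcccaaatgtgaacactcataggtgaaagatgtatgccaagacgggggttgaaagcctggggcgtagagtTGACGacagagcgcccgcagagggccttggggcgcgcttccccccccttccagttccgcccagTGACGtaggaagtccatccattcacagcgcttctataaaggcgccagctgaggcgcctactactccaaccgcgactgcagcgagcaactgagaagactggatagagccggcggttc
Egr2: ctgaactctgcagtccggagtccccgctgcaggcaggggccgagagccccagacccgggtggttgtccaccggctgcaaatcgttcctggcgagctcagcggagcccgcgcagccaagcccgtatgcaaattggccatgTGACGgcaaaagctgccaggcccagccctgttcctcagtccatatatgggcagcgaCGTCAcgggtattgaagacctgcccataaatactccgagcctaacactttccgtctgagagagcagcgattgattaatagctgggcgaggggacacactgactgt
Each of the 3 windows holds 2 cores before the start. In Npas4 they lie close together on opposite strands, in Fos both read on the printed strand, and in Egr2 the strands differ again. Nr4a1, Nr4a2 and Nr4a3 hold 4 cores each, and their levels differed by -0.50, -0.18 and -0.10.

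Receptors for serotonin were the next pathway list below the rest. All 6 measured members of 14 listed were lower on cafeteria, with a median of -0.17 against -0.05 for all features, and 3 of them were at an unadjusted p under 0.05 (background 5.4%). Htr1b, the receptor on axon endings that holds back transmitter release, measured 5.05 at the lowest, 5.62 at the median and 6.35 at the highest on cafeteria, against 5.58, 6.22 and 6.59 on fast food. On cafeteria 3 of 6 arrays lay below every fast food array, and the difference was -0.50 ± 0.13 (SE; adjusted p = 0.56), with -0.43 in batch 1 and -0.56 in batch 2. Htr5a differed by -0.22 ± 0.09 (SE) and Htr1a, the autoreceptor of serotonin neurons, by -0.22 ± 0.10 (SE). Htr7 and Htr1d, at -0.03 and -0.02, lay above the median of all features. Both are named after their values were seen. Tph2 and Slc6a4, which make and take up serotonin, were not among the measured members. Under the further quantile normalization 1 member of 6 was higher on cafeteria, and with the SD of each array as a covariate 2 were.

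For inhibitory transmission, 12 of 14 measured genes of GABA receptors and synthesis were lower on cafeteria, with a median of -0.15. The typical member sits among the 3460 features with the highest levels, of which 14.4% were higher on cafeteria. Gabrg3, a receptor subunit, lay between 4.07 and 4.53 on cafeteria and between 4.32 and 4.73 on fast food, a difference of -0.25 ± 0.10 (SE). Gabrg1, another subunit, differed by -0.29 ± 0.13 (SE), and its cafeteria batch 1 replicate 1 array stood at 5.57, below the other 5, which reached 6.58. Slc32a1, the vesicular GABA transporter, differed by -0.20 ± 0.10 (SE) in the probe set used and by 0.23 in the probe set with the largest SD, so that its direction is not settled. The list median shrank to -0.04 with the SD of each array as a covariate. The 18 measured glutamate receptor and plasticity genes had a median of -0.07, near that of all features, and 0.03 with that covariate.

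Appetite genes showed both directions. Of 27 measured feeding neuropeptides and receptors 6 were higher and 21 lower, with a median of -0.08 (-0.04 after the further quantile normalization and -0.03 with the SD of each array as a covariate), and 2 higher and 3 lower members were at an unadjusted p under 0.05 (background 2.69% and 5.4%). Crh, the corticotropin-releasing hormone that starts the stress axis and restrains eating, lay at 4.24 to 4.75 on cafeteria and at 4.53 to 5.22 on fast food. Its difference was -0.44 ± 0.11 (SE; adjusted p = 0.56), with -0.52 in batch 1 and -0.37 in batch 2. Bdnf, a growth factor that acts on appetite circuits and on synapses, differed by -0.27 ± 0.11 (SE), from 6.36 ± 0.18 on cafeteria against 6.63 ± 0.21 on fast food (SD, n = 6 each). Mchr1, the receptor of melanin-concentrating hormone, went the other way by 0.23 ± 0.08 (SE), but its probe set with the largest SD gave 0.00. The second of the 2 higher members at an unadjusted p under 0.05 was Pomc, the precursor of an appetite-lowering peptide and of pituitary hormones. Its difference of 1.30 was 0.53 without cafeteria batch 1 replicate 1, and it is taken up with the pituitary markers.

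Insulin and IGF signalling had 25 measured genes, 19 lower and 6 higher, and a median of -0.06, close to that of all features. Pik3ca, the catalytic subunit of phosphoinositide 3-kinase, differed by -0.23 ± 0.09 (SE), Insr, the insulin receptor, by -0.24 ± 0.10 (SE) and Irs1, its docking protein, by -0.19 ± 0.09 (SE). These lay in the same direction in both batches, and the list median became 0.02 after the further quantile normalization.

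Lipid synthesis lay somewhat below the median of all features in the deposited values. Of 20 measured genes of cholesterol synthesis 17 were lower on cafeteria, with a median of -0.13, at -0.06 in batch 1 and -0.17 in batch 2. Idi1, the isomerase that makes the second isoprene building block, lay between 6.48 and 7.03 on cafeteria and between 6.42 and 7.40 on fast food. It differed by -0.23 ± 0.10 (SE) and Dhcr7, which makes cholesterol in the last step of one branch, by -0.19 ± 0.09 (SE). Stard4, a carrier of sterols inside cells, differed by -0.27 ± 0.13 (SE). The median stayed below 0 in every alternative, between -0.17 and -0.06. Fatty acid synthesis and desaturation had 19 of 20 genes lower and a median of -0.13, which was -0.02 with the SD of each array as a covariate. Acss2, which makes acetyl-CoA from acetate, differed by -0.22 ± 0.08 (SE), Elovl4, an elongase of very long chains, by -0.24 ± 0.10 (SE) and Elovl1, of the same family, by -0.22 ± 0.10 (SE). In these lists 2 of 20 genes each were at an unadjusted p under 0.05, lower on cafeteria, beside 5.4% of all features. After the further quantile normalization cholesterol synthesis had 0 genes lower and 1 higher at that p. Fatty acid synthesis then had 1 lower and 0 higher, beside 3.52% of all features lower.

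Energy metabolism shows how far direction hung on scaling. Oxidative phosphorylation had 37 of 37 measured genes lower on cafeteria in the deposited values, with a median of -0.06 and no gene at an unadjusted p under 0.05. After the further quantile normalization 22 of the 37 were higher, and with the SD of each array as a covariate, or without the 2 arrays that stood apart, 37 were higher. The typical member sits among the 3460 features with the highest levels, of which 14.4% were higher on cafeteria. Glycolysis and pyruvate metabolism, 22 of 23 lower with a median of -0.09, had a median of 0.06 with that covariate. The 27 measured ribosomal protein genes had a median of -0.01 in the deposited values, with 11 higher on cafeteria and 0 at an unadjusted p under 0.05. With the covariate, which was chosen after the data were seen, the median was 0.18 with 25 of 27 higher. The median of all features in that fit was 0.00. The 27 proteasome subunits had a median of -0.04 with 6 higher, and with the covariate 0.09 with 25 higher. Oxct1, the enzyme that lets brain burn ketone bodies, differed by -0.17 within the list of fatty acid oxidation and ketone use, whose median was -0.04 and, with the covariate, 0.03.

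Among stress genes, 21 of 22 heat shock proteins and chaperones were lower on cafeteria, with a median of -0.15 that became -0.01 with the SD of each array as a covariate. Their typical member also sits among the 3460 features with the highest levels, of which 14.4% were higher on cafeteria. Hspa1a, the inducible 70-kDa heat shock protein, lay between 4.22 and 4.51 on cafeteria and between 4.41 and 4.68 on fast food, and differed by -0.18 ± 0.08 (SE). Chordc1, an Hsp90 co-chaperone, differed by -0.28 ± 0.13 (SE) and Bag3, a co-chaperone of autophagy, by -0.15 ± 0.07 (SE). The unfolded protein and amino acid response was near the background (median -0.07, and 0.03 with the covariate), with Phgdh, the first enzyme of serine synthesis, higher by 0.24. Glucocorticoid response genes had a median of -0.11 in the deposited values and 0.05 with the covariate. Inflammation and interferon lists had medians of -0.01, which were 0.01 and 0.00 with the covariate, with Socs3, an inhibitor of cytokine signalling, higher by 0.29 ± 0.10 (SE).

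The circadian clock list was near the background as a whole, with 14 of 19 genes lower and a median of -0.04. Its direction turned with scaling, to 11 of 19 higher and a median of 0.03 after the further quantile normalization and to 11 of 19 higher and 0.02 with the SD of each array as a covariate. Per2, a repressor within the clock, measured 5.50 at the lowest, 5.85 at the median and 5.98 at the highest on cafeteria, against 5.83, 6.19 and 6.32 on fast food. The difference was -0.30 ± 0.09 (SE; adjusted p = 0.56). Nr1d1, which represses Bmal1, was higher by 0.24, whereas Rora, which activates it, was lower by 0.18 in the probe set used and higher by 0.29 in the probe set with the largest SD.

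**Figure D3:**
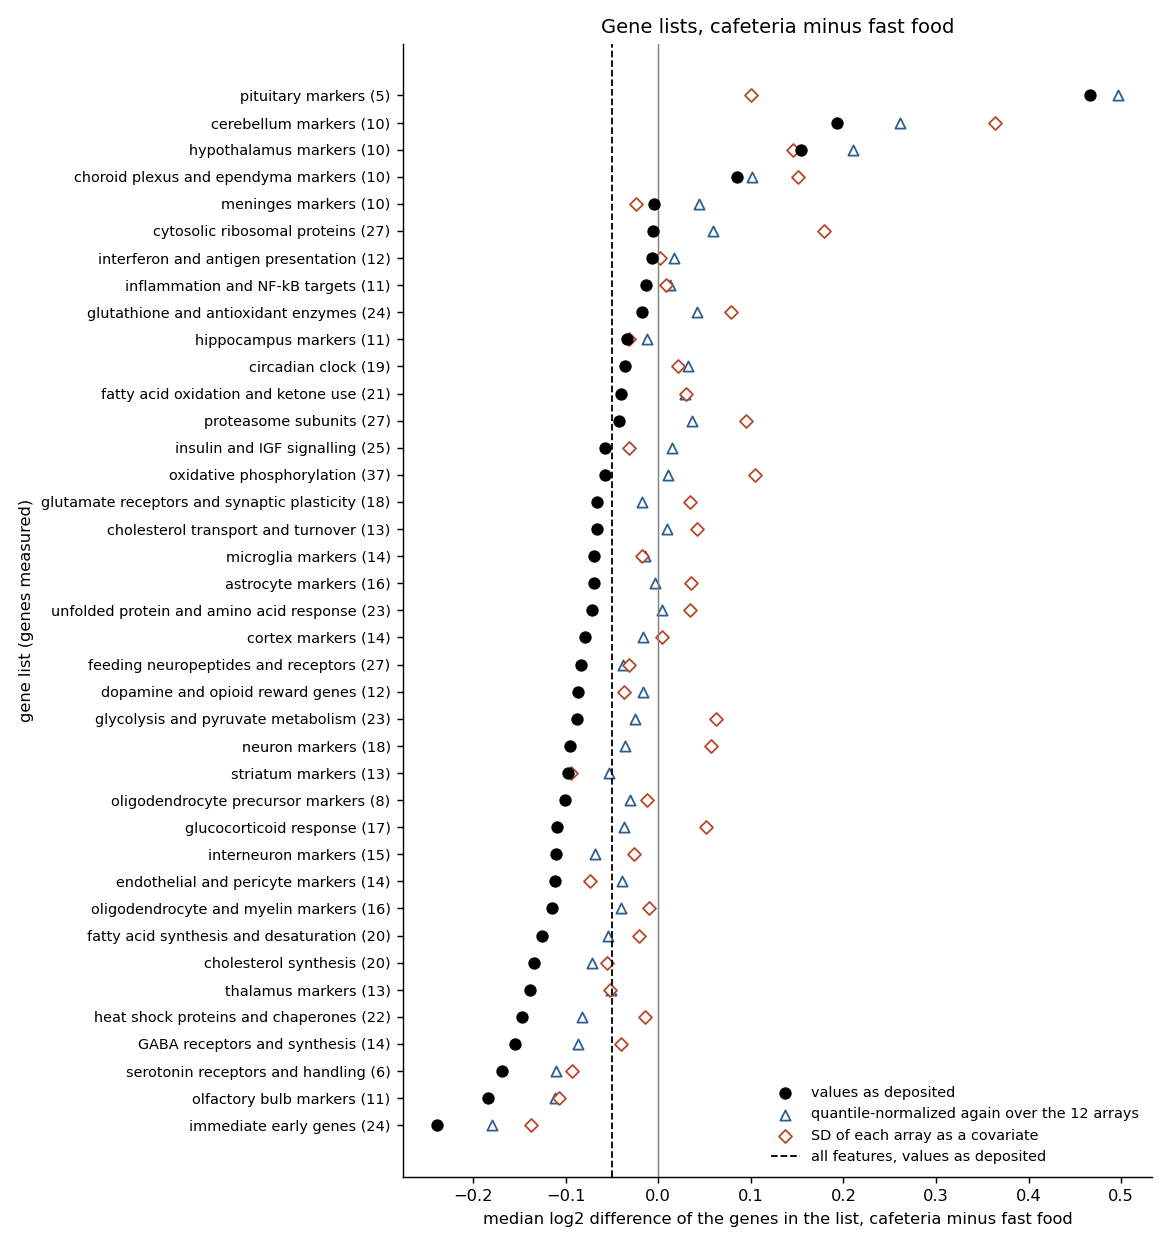
Median log2 difference, cafeteria minus fast food (x axis), of each list with at least 5 measured genes (y axis, number measured in brackets), from the deposited values (black), after a further quantile normalization (triangles) and with the SD of each array as a covariate (diamonds); the dashed line is the median of all features, -0.05. Immediate early genes lie lowest in all 3 settings, at -0.24, -0.18 and -0.14, and the pituitary, cerebellum and hypothalamus markers lie highest in the deposited values.

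The single genes with the largest differences were picked as the 15 in each direction with an unadjusted p under 0.01 and the same sign in both batches, from 60 genes higher and 101 lower on cafeteria that met these terms. The differences are therefore the extremes of the table and are given as a description. Of the 15 higher genes 9 lie among the 3460 features with the lowest levels and 1 lies above a mean level of 6.24, which is the median level. Of the 15 lower genes these numbers are 6 and 3.

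Mid1, a ubiquitin ligase bound to microtubules and encoded on chromosome X, had the largest difference. It measured 5.38, 5.86 and 5.12 in batch 1 and 5.83, 6.18 and 5.68 in batch 2 on cafeteria, against 5.87, 3.61 and 3.65 in batch 1 and 4.25, 4.06 and 3.69 in batch 2 on fast food. Hence 5 of the 6 fast food arrays lay below every cafeteria array, and the sixth (batch 1 replicate 1) lay among the cafeteria arrays. The difference was 1.49 ± 0.30 (SE; adjusted p = 0.43). Without that array it was 1.86, with an adjusted p of 2.19e-06 from limma, and in batch 2 alone 1.90, with an adjusted p of 0.0039. Both fits lack the fast food array that lay among the cafeteria arrays, so their p-values are no separate support. In the other diets the gene was high in some mice and low in others, above 5 in 5 of 6 mice on the chimpanzee diet and in 3 of 6 on pellets, where that bound was chosen after the values were seen. The 2 further probe sets of Mid1 were below the level filter and differed by 0.13 and 0.04.

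Speer3, 2310047D07Rik and Spata3 came next. Speer3, of a family of spermatogenesis-associated glutamate-rich proteins, had a median of 4.63 on cafeteria and of 4.11 on fast food, a difference in means of 0.70 ± 0.15 (SE; adjusted p = 0.56). Spata3, named for spermatogenesis too, differed by 0.60 ± 0.11 (SE; adjusted p = 0.43), from 4.74 to 6.13 on cafeteria against 4.19 to 5.26 on fast food. The uncharacterised 2310047D07Rik differed by 0.60 ± 0.11 (SE; adjusted p = 0.43). In each of these 3 genes the diets overlapped over the 12 arrays and stood apart within batch 2, where the highest fast food array lay below the lowest cafeteria array.

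The remaining higher genes differed by 0.37 to 0.49. Igha, the constant part of immunoglobulin A, differed by 0.49 ± 0.16 (SE), with cafeteria values from 4.91 to 6.16 and fast food values from 4.86 to 5.07. Bpnt2, a phosphatase of the Golgi, differed by 0.46 ± 0.15 (SE) in the probe set used and by -0.04 in the probe set with the largest SD. Tlx2 and Hand1, developmental transcription factors, differed by 0.44 and 0.42. Scarf2, a scavenger receptor, differed by 0.39, Spag4, a sperm protein of the nuclear envelope, by 0.39, Myo7b, a myosin of microvilli, by 0.39 and Mapk15, an atypical mitogen-activated kinase, by 0.38. Tnni2, a troponin of fast muscle, differed by 0.37, Zfp36, which marks AU-rich mRNAs for decay, by 0.37 and Zbtb7c, a zinc finger factor, by 0.37. Igha, Spag4, Myo7b, Mapk15 and Tnni2 differed more in batch 1 than in batch 2, as with 0.64 and 0.13 for Spag4.

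On the lower side, Pbx3 followed Npas4. Pbx3, a homeobox partner of Hox proteins, lay between 4.79 and 6.07 on cafeteria and between 5.63 and 6.84 on fast food, a difference of -0.70 ± 0.22 (SE; adjusted p = 0.58). A second probe set gave -0.44. Klhl4, an adaptor of the kelch family, differed by -0.51 ± 0.12 (SE), Usp25, a deubiquitinase, by -0.50 ± 0.11 (SE) and Htr1b by -0.50. Tmem181a lay between 8.04 and 8.62 on cafeteria and between 8.41 and 8.96 on fast food, a difference of -0.47 ± 0.11 (SE; adjusted p = 0.56), and it has the highest mean level of these 15 genes.

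G630016G05Rik differed by -0.44 and Crh by -0.44. Anln, a scaffold of actin in dividing cells that myelin also holds, differed by -0.41, Tab3, an adaptor of the kinase TAK1, by -0.41 and Zfhx4, a homeobox factor of neurons, by -0.39. Chac2, which degrades glutathione, Brinp3, a brain-enriched protein, Uba6, an enzyme that activates ubiquitin, and 5530601H04Rik each differed by -0.38. These 15 genes kept their sign in every alternative tried, as did 14 of the 15 higher genes, Bpnt2 being the exception. Both batches entered their selection, so the steady sign is no separate support.

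**Figure D4:**
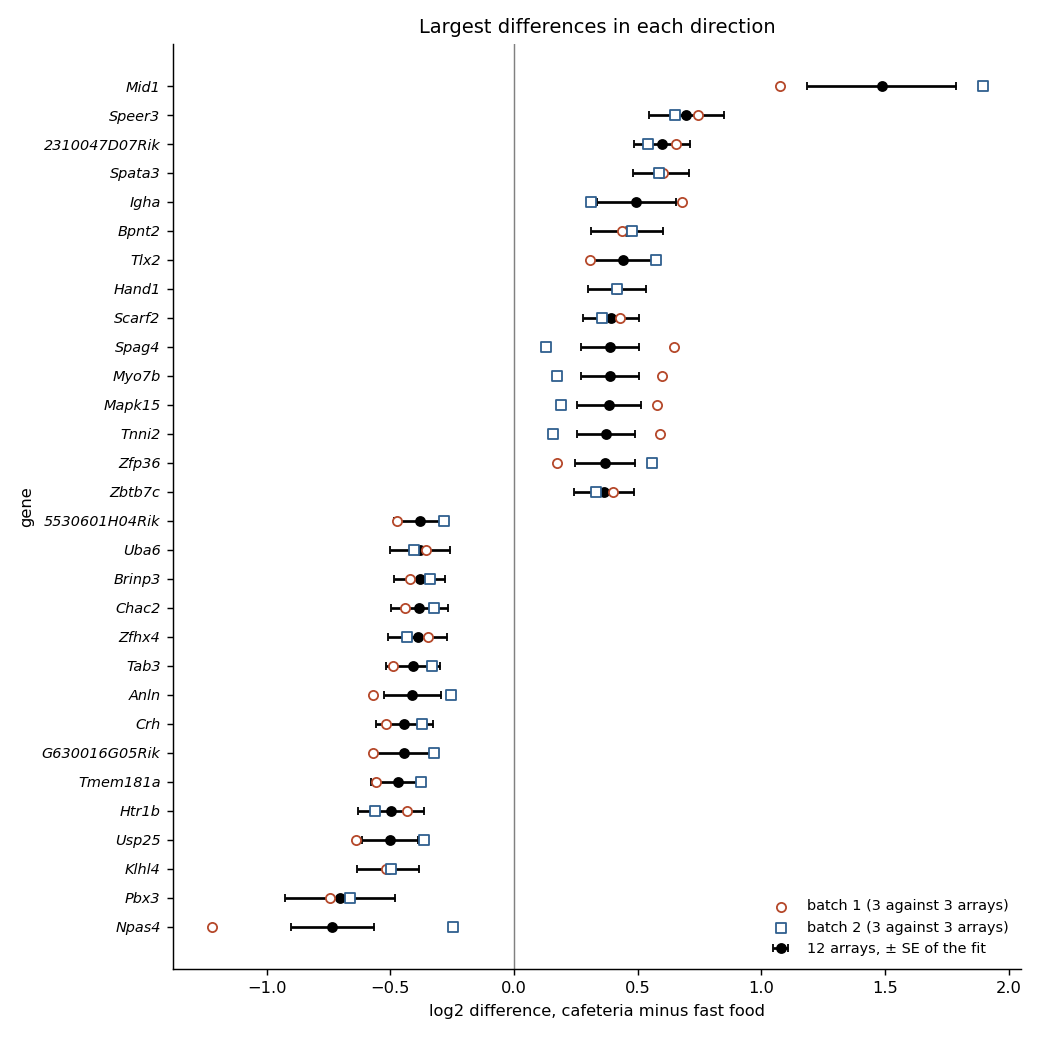
Log2 difference, cafeteria minus fast food (x axis), of the 15 genes with the largest differences in each direction (y axis), over 12 arrays with the SE of the fit (black) and in batch 1 (circles) and batch 2 (squares) alone. Mid1 lies at 1.49 and Npas4 at -0.73, and none of the 30 passed the adjusted test.

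At the level of whole arrays, the 6 cafeteria arrays lay above all 6 fast food arrays for 6 features (0.0434%) and below them for 6 (0.0434%). Named after their values were seen, these were Cep152, Ism1, Rsph9, Slc16a8, Tbrg4 and Wdr33, which were higher on cafeteria, and Gamt, Irak2, Lekr1, Nfxl1, Nup37 and Zfp958, which were lower. Their differences were small, from 0.14 for Wdr33 to 0.30 for Rsph9, a protein of ciliary spokes, and from -0.30 for Nup37, a nucleoporin, to -0.16 for Gamt, which makes creatine.

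Of the 11 genes singled out in an earlier comparison of all 4 diets, on arrays that include these, Mid1, Tmem181a, Per1, Per2, Egr2, Nr4a3 and Dusp4 are given above, and the other 4 follow. Klf13, a zinc finger factor, averaged 7.85 ± 0.26 on cafeteria and 8.12 ± 0.23 on fast food (SD, n = 6 each), a difference of -0.28 ± 0.09 (SE; adjusted p = 0.59). Sfxn5, a carrier of the mitochondrial membrane, differed by -0.32 ± 0.13 (SE), Inpp4a, a phosphoinositide phosphatase, by -0.23 ± 0.11 (SE) and Ttyh2, a membrane protein of the tweety family, by -0.17 ± 0.13 (SE). Each was lower on cafeteria in either batch.

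Markers of neurons, glia and vessels had medians between -0.11 and -0.07, against -0.05 for all features. Neuron markers were lower in 17 of 18 genes with a median of -0.10, astrocyte markers in 14 of 16 with -0.07, oligodendrocyte and myelin markers in 15 of 16 with -0.11 and microglia markers in 11 of 14 with -0.07. The neuron and astrocyte medians turned to 0.06 and 0.04 with the SD of each array as a covariate. Typical neuron, astrocyte and myelin markers sit among the 3460 features with the highest levels, of which 14.4% were higher on cafeteria. Olig2, which specifies the oligodendrocyte lineage, differed by -0.28 ± 0.08 (SE), Gpr17, of its maturing precursors, by -0.22, Aspa and Cldn11, of mature myelin, by -0.26 and -0.27. C1qb and C1qa, complement genes of microglia, differed by -0.23 and -0.26, whereas Trem2, a receptor of the same cells, differed by 0.15. Endothelial and pericyte markers were lower in 10 of 14 genes with a median of -0.11, and there Pdgfrb of pericytes and Abcb1a, the drug pump of brain endothelium, differed by -0.20 and -0.23. Interneuron markers were lower in 12 of 15 with a median of -0.11 (-0.03 with the covariate), Reln, of cortical interneurons, differing by -0.19. Nefh, of large axons, differed by -0.29. At an unadjusted p under 0.05, 2 of 16 myelin, 2 of 8 oligodendrocyte precursor and 2 of 14 microglia markers were lower on cafeteria. So were 2 of 14 endothelial and pericyte, 2 of 15 interneuron, 1 of 18 neuron and 0 of 16 astrocyte markers, against 5.4% of all features.

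Markers of neighbouring regions varied from array to array. Pituitary genes were high on 2 arrays, with a mean over 5 genes of 8.74 on cafeteria batch 1 replicate 1 and of 5.95 on fast food batch 1 replicate 1, against 4.05 to 4.54 on the other 10. Gh, growth hormone, stood at 11.7 and 8.26 on those 2 arrays and Prl, prolactin, at 11.3 and 7.98. Pomc stood at 10.47 on the cafeteria array and between 4.71 and 6.25 on the other 11, so that its difference of 1.30 ± 0.59 (SE) was 0.53 without that array. The list median, 0.47 with 5 of 5 genes higher on cafeteria, was 0.05 with 3 of 5 higher when that array was left out. Gh and Prl are named after their values were seen. The array with the pituitary genes is also the one furthest out on the first principal component, and its part in the immediate early gene values was measured by leaving it out: Npas4 then differed by -0.57, Fos by -0.46 and Egr2 by -0.44.

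Cerebellum markers were higher on cafeteria in 9 of 10 genes with a median of 0.19, and on 3 cafeteria arrays and 2 fast food arrays the list mean was above 7. The list median was 0.32 in batch 1 and 0.08 in batch 2, 0.26 after the further quantile normalization and 0.36 with the SD of each array as a covariate. Leaving out 1 array moved it to between 0.07 (without cafeteria batch 1 replicate 3) and 0.31 (without fast food batch 1 replicate 3). Gabra6, a receptor subunit of granule cells, measured 5.85, 2.95 and 7.32 in batch 1 and 7.19, 4.38 and 3.58 in batch 2 on cafeteria, against 2.78, 3.01 and 5.95 in batch 1 and 5.94, 2.92 and 3.04 in batch 2 on fast food. Its difference of 1.27 ± 0.76 (SE) was thus within the spread between mice, as was that of Pcp2 of Purkinje cells, 1.00 ± 0.50 (SE). Hypothalamus markers had a median of 0.15, with 0.32 in batch 1 and -0.09 in batch 2, and from 0.03 (without fast food batch 2 replicate 2) to 0.32 (without cafeteria batch 2 replicate 2) with 1 array left out.

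Olfactory bulb markers leaned the other way, with 9 of 11 genes lower on cafeteria, a median of -0.18 and 4 genes at an unadjusted p under 0.05 (background 5.4%). Besides Pbx3 these were Dlx5, a homeobox gene of inhibitory neurons, at -0.37 ± 0.10 (SE), Meis2, a partner of Pbx proteins, at -0.32 ± 0.13 (SE), and Cdhr1, a cadherin, at -0.62, which is named after its value was seen. The list mean lay between 6.13 and 6.50 on cafeteria and between 6.10 and 7.01 on fast food. Leaving out 1 array moved the list median to between -0.34 (without fast food batch 1 replicate 1) and -0.08 (without fast food batch 1 replicate 2, whose list mean was the highest), and it was -0.11 both after the further quantile normalization and with the SD of each array as a covariate.

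Striatum markers were lower in 12 of 13 genes with a median of -0.10, and Pde10a, a phosphodiesterase, differed by -0.32 ± 0.10 (SE). Cortex markers were lower in 12 of 14 with a median of -0.08, whose sign turned in 2 of 29 alternatives, to 0.005 at most. In each direction 1 of the 14 was at an unadjusted p under 0.05, beside 2.69% of all features higher and 5.4% lower. Ccn2, of deep layers, differed by -0.31 ± 0.11 (SE) and Neurod2, a transcription factor of excitatory neurons, by 0.17 ± 0.08 (SE). Ccdc153, a gene of ciliated ependyma, differed by 0.29 in a choroid plexus and ependyma list whose median was 0.09, and Alas2, the red cell haem synthase, by 0.70 ± 0.37 (SE). Whether the regions and vessels present in each dissected hemisphere bear on the pathway lists was not tested.

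**Figure D5:**
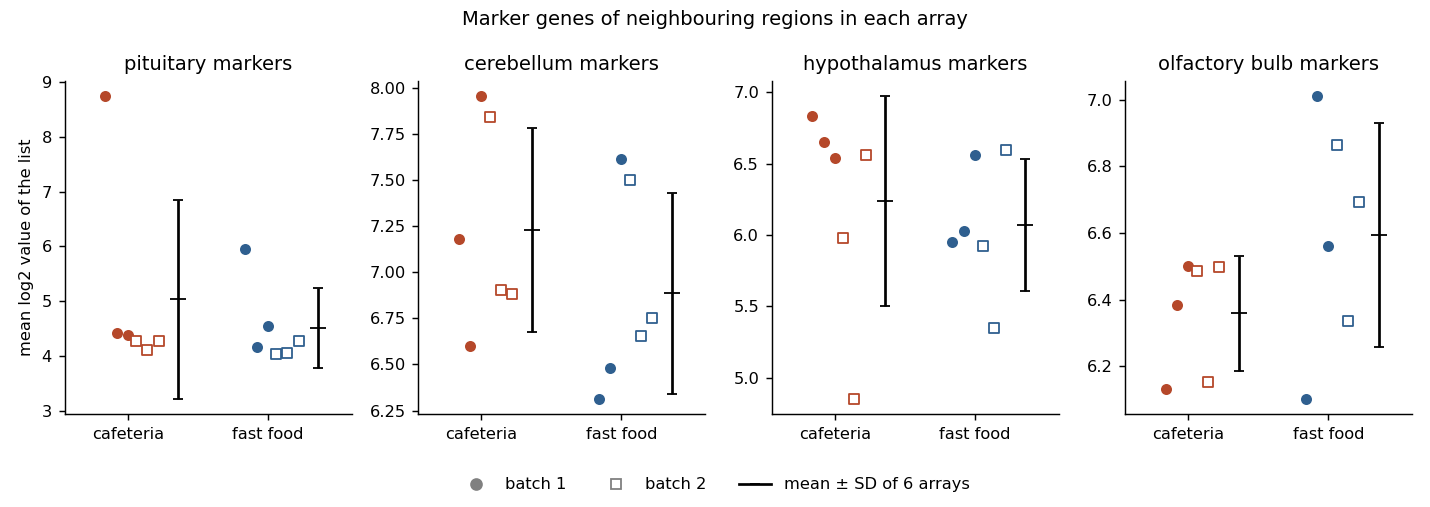
Mean log2 level (y axes) of the pituitary, cerebellum, hypothalamus and olfactory bulb marker lists in each array, cafeteria left and fast food right, with filled circles for batch 1, open squares for batch 2 and bars for the mean ± SD of 6 arrays. The pituitary mean reaches 8.74 on 1 cafeteria array and 5.95 on 1 fast food array, and the cerebellum mean exceeds 7 on 3 cafeteria arrays and 2 fast food arrays.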

How the data were processed

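The authors deposited log2 expression values of 45101 probe sets on 24 arrays. These had been computed by robust multichip average in affy, quantile normalization included. Control probe sets (64), probe sets with several genes (932) and those averaging below 4.07, the median level, were set aside, and the probe set with the highest mean stood for each gene, which left 13839 features (11645 genes, 2194 unannotated). The 6 cafeteria and 6 fast food arrays were fitted with limma 3.58.1 in R 4.3.3, with diet and batch as terms and Benjamini-Hochberg adjustment over all features at 0.05. The batch-by-diet term was tested in a second fit. Permutation tests ran over all 924 splits of the 12 arrays. The 40 gene lists (651 of 824 entries measured, 79%), the comparison and the genes singled out were chosen with earlier results of these data known. Named genes are the 15 largest differences per direction among genes of unadjusted p below 0.01 and equal sign in both batches, up to 3 members of each list with the smallest p, and 11 genes of the earlier comparison. Others were chosen after their values were seen, as was the tissue check. The fit was tested on simulated data. Equal replicate numbers were not taken to pair mice, since the labels give them no shared source and 3 of 6 such pairs correlated below 0. Alternatives covered the filter, probe set choice, normalization, weights, the arrays fitted, single batches, a replicate block, covariates and each array left out in turn. Array number limits the precision. Figures used matplotlib 3.10.9 in Python 3.11.15.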

Additional observations from a re-analysis of the deposited data

Results flagged for a closer look

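For 89 of the named genes and the 40 lists, the 6 arrays of either diet were searched for a lone highest or lowest array by the gap to its neighbour. Of 258 sets 14 were marked, close to the 1 in 20 that chance gives. The blood list, with 1 measured gene, is counted in these sets but was not searched. Some genes named after their values were seen, such as Jund and Egr4, are not among the 89. Pituitary markers were marked on both diets, with a mean of 8.74 on cafeteria batch 1 replicate 1 (the other 5 between 4.11 and 4.42) and of 5.95 on fast food batch 1 replicate 1 (4.05 to 4.54). The same cafeteria array was highest for Pomc (10.47, others up to 6.25) and lowest for Junb (6.28), Per2 (5.50), Gabrg1 (5.57) and the mean of the ribosomal proteins (9.42, others from 9.80). The same fast food array was highest for Mid1 (5.87, others up to 4.25) and Socs3 (4.60) and lowest for Elovl1 (6.23). Single arrays stood out for Tmem181a on cafeteria batch 2 replicate 2 (8.62), for the choroid plexus and ependyma markers on cafeteria batch 2 replicate 1 (6.34), for Dusp4 on fast food batch 2 replicate 3 (5.06) and for Trem2 on fast food batch 2 replicate 2 (4.91). Whether tissue taken at dissection bears on any of these was not tested.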

How the results depend on the processing

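No feature passed between the diets in 25 of 29 fits, and no interaction did in the fits run for it. Mid1 passed with array weights (1 feature), in batch 2 alone (1) and without fast food batch 1 replicate 1 (leave-one-out counts ranged from 0 to 1). The fit of batch 2 alone also lacks that array, whose Mid1 level lay among the cafeteria arrays. With batch and replicate number as a block in limma 10 features passed, Fos (adjusted p = 0.0071), Nr4a1 (0.020), Egr2 (0.040), Pbx3 (0.0071), Mid1 (0.035), Speer3, Spata3, 2310047D07Rik and 2 unannotated probe sets. In that fit 15 of 24 immediate early genes were lower at an unadjusted p under 0.05, against 8.62% of all features. There 5 of 10 cerebellum markers were higher at that p. Of the 1701 features at that p in the block fit, from 13839 tested, 29.9% were higher on cafeteria. That is a share of the features at that p and not of all features, so it is no background for the 5 of 10. Whether equal numbers pair the mice is not settled: the labels give them no shared source, residuals of same-numbered mice correlated between -0.22 and 0.48, and 3 of 6 correlated best with their own number. Features at an unadjusted p under 0.05 (1119) became 1701 in that block fit, 2502 with no filter on level, 373 above a mean level of 6.02, 2049 with each probe set apart, 91 with all 24 arrays, 319 with no batch term, 441 in batch 1 alone, 580 in batch 2 alone, 648 without the 2 arrays that stood apart (chosen after seeing the data, as was the SD covariate), and 619 to 1510 with 1 array left out, the lowest without cafeteria batch 1 replicate 1. The share of these higher on cafeteria (33.2%) was 50.4% with no filter and 10.2% above that level. The fit of all 24 arrays takes in the pellet arrays, and the paper set aside 1 pellet brain sample for degraded RNA. The 18S ribosomal RNA signal of pellet arrays was 4.96 to 5.51 in batch 1 and 5.92 to 6.42 in batch 2. On the human diets it ran the other way, at 5.87 to 6.58 in batch 1 and 4.88 to 5.08 in batch 2. Signs turned for Per1 (-0.00) at 0.0659 after quantile normalization, 0.0536 with weights, 0.105 in batch 1, 0.0271 with the 3′/5′ covariate, 0.0804 with the SD covariate, 0.0864 without the 2 arrays and -0.0756 to 0.0597 with 1 array left out, for Nr4a3 in batch 1 (0.0604), and with the probe set of largest SD for Bpnt2 (-0.0394), Mchr1 (-0.00495), Slc32a1 (0.233) and Rora (0.291). Of the 89 named genes that were followed, the other 83 kept their sign throughout, as did 18 of 40 list medians. The causes were not tested.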

Other observations

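Each of the 2 human diets has 3 mice in either batch, which makes 4 sets. The mouse numbered 3 in the labels had the highest mean of the immediate early genes in 4 of 4 sets. The mouse numbered 1 had the lowest in 4 of 4. On cafeteria these lowest values were 6.58 in batch 1 and 6.90 in batch 2, and on fast food they were 6.93 and 7.21. Over all 4 diets the mouse numbered 3 was highest in 4 of 8 sets. The mouse numbered 1 was lowest in 5 of 8 sets, and on the chimpanzee diet it was the highest, at 7.93 and 7.68. Of the 24 measured members 10 were lowest in the mouse numbered 1 in each of the 4 sets, against 3.55% of all features. The labels do not say what the number stands for, and this pattern was noticed in the data.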
